A study of Mus musculus with 12 samples.

Results

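MHC class I presentation was followed through 10 genes of 46072 in the authors' table. They were chosen by name, with earlier results of these data known. The 10 were the heavy chains H2-K1, H2-D1, H2-M3 and H2-T23, the light chain B2m, the transporter subunits Tap1 and Tap2, the loading factor Tapbp, and the immunoproteasome subunits Psmb8 and Psmb9. All 10 were listed in the table and had an adjusted p-value in each comparison. They were measured by RNA sequencing in osteoclasts, macrophages and immature dendritic cells all derived from marrow cells, with 4 libraries per cell type and 12 in all. The mice were of the C57BL/6J strain and aged 6 to 8 weeks. Macrophages were grown in M-CSF at 30 ng/ml, osteoclasts in M-CSF at 30 ng/ml with RANKL at 50 ng/ml, and dendritic cells in GM-CSF at 20 ng/ml. Precursors of macrophages and osteoclasts were first expanded for 5 days in M-CSF at 100 ng/ml, and dendritic cells were not. Differentiation took 8 to 10 days, and mononuclear cells were removed from the osteoclast cultures with Accutase, an enzyme mix that detaches them. Per the labels' protocols each mouse gave RNA of every cell type, and there were 4 such marrow extractions, so each library of a cell type is from another mouse. No cell type was treated with interferon or a microbial product, as far as the labels say.

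Class I molecules carry peptides from the cytosol to the cell surface, where CD8+ T cells read them. Proteins are cut by the proteasome, whose catalytic subunits are replaced by those of the immunoproteasome in cells exposed to interferon gamma and in many immune cells. The peptides enter the endoplasmic reticulum through the Tap1-Tap2 transporter and are loaded, with the help of tapasin (Tapbp), onto a heavy chain paired with beta-2 microglobulin (B2m). H2-K1 and H2-D1 encode the classical heavy chains of this strain, which present varied peptides. H2-M3 and H2-T23 (Qa-1) encode nonclassical chains, which bind formylated peptides and leader peptides of other class I chains. Osteoclasts, which resorb bone, macrophages, and dendritic cells, which prime T cells, are all of the myeloid lineage.

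The genome places 9 of the 10 genes on mouse chromosome 17 and B2m on chromosome 2. All coordinates of genes are from GENCODE M21 on GRCm38. Psmb9 (chr17:34181987-34187764, minus strand), Tap1 (chr17:34187553-34197225, plus), Psmb8 (chr17:34197721-34201454, plus) and Tap2 (chr17:34203527-34216321, plus) follow each other closely, and the annotated Psmb9 and Tap1 overlap at their starts, where reads could be told apart only by strand. Tapbp (chr17:33915899-33929292, plus) and H2-K1 (chr17:33996017-34000347, minus) lie before them. H2-D1 (chr17:35262730-35267499, plus), H2-T23 (chr17:36029773-36032855, minus) and H2-M3 (chr17:37270220-37274484, plus) lie after them, and B2m is at chr2:122147686-122153083 (plus). The RefSeq start sites of Tap1 and Psmb9 are 226 bases apart and point away from each other.

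The upstream sequence of these genes is shown as a description, and whether it bears on their levels was not tested. RefSeq windows (GRCm38.p6) were at hand for 9 of the 10 members, and the 250 bases before each start were searched on both strands. The heavy chain genes H2-K1, H2-D1 and H2-M3 and B2m each held the letters TGACG and ATTGG as the ends of a 30-base stretch. TGACG is the core of a cyclic AMP response element and ATTGG is CCAAT read from the other strand, and both are printed in capitals, with any other CCAAT.

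H2-K1, chr17:34000359-34000388, minus strand: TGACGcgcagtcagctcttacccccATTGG
H2-D1, chr17:35262993-35263022, plus strand: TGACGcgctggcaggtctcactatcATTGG
B2m, chr2:122147609-122147638, plus strand: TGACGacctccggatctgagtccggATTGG
H2-M3, chr17:37270188-37270217, plus strand: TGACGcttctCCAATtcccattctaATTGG

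This spacing was picked after the matches were seen. It occurred in 30 of 32851 promoter windows (0.0913%), which belonged to 26 genes. TGACG alone was in 17.8% of windows and CCAAT alone in 33.8%. The calls of these 4 genes were not alike: H2-K1 and H2-D1 passed the authors' test in no comparison, B2m was higher in dendritic cells than in both other cell types, and H2-M3 was lower in osteoclasts than in both others.

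H2-K1, H2-D1 and B2m also held a match to the NF-kappa-B type of site (GGG, 2 bases of any kind, TT, 1 base of any kind, CC), which was in 4.11% of windows. The matched letters are in capitals, and the B2m match is on the strand opposite to the gene, so that it reads as its reverse complement.

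H2-K1, chr17:34000439-34000468, minus strand: gcccagggctGGGGATTCCCcatctccaca
H2-D1, chr17:35262913-35262942, plus strand: gcccagggctGGGGATTCCCcatctcctca
B2m, chr2:122147551-122147580, plus strand: actgaaaatgGGAAAGTCCCtttgtaacct

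Matches to the type of site bound by interferon regulatory factors (GAAA, 2 bases of any kind, GAAA) were in 2.98% of windows. Among the members B2m and H2-T23 held such a match, in H2-T23 on the strand opposite to the gene, so that it reads as its reverse complement. The B2m match overlaps the NF-kappa-B type stretch above. The interferon gamma type of site (TTC, 3 bases of any kind, GAA) was in 7.02% of windows and, among the members, in those of H2-M3 and Psmb8.

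B2m, chr2:122147538-122147567, plus strand: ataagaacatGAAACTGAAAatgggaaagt
H2-T23, chr17:36032806-36032835, minus strand: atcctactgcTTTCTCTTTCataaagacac

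Between the divergent starts of Tap1 and Psmb9 lay a TGACG, shown on the Tap1 strand, and a CCAAT box, shown on the Psmb9 strand.

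Tap1, chr17:34187458-34187487, plus strand: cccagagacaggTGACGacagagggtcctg
Psmb9, chr17:34187331-34187360, minus strand: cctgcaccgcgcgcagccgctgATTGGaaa

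A match is a description of letters in the window. Binding was not measured in this study.

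Before the members, the cell types were set against their markers. A list of 9 osteoclast genes took 1.35% of all summed means for osteoclasts, 0.017% in macrophages and 0.145% in dendritic cells, and a list of 7 dendritic cell genes took 0.0173%, 0.00588% and 0.484%. Of the 9 osteoclast genes, 9 were called higher in osteoclasts than in macrophages. Against dendritic cells 6 were called higher and 3 were not called. Dendritic cells also had 6 of the 9 called higher than macrophages. The 6 macrophage genes took 0.668% in macrophages, 0.452% in osteoclasts and 0.226% in dendritic cells, and 5 of the 6 were called lower in osteoclasts than in macrophages (median log2 -0.89). Against dendritic cells, osteoclasts had 3 of the 6 called higher and 2 lower. The summed means, which stand for depth after scaling, were 2.42e+07 for osteoclasts, while macrophages had 2.5e+07 and dendritic cells 2.77e+07. Values are the authors' counts divided by a size factor per library, called normalised counts here, and the size factors recovered from the table ranged from 0.975 to 1.043. When each cell type was scaled to the same total instead, the median log2 difference of all genes moved by 0.19 for osteoclasts against dendritic cells and fell by 0.15 for dendritic cells against macrophages. The share of higher genes among those called then moved from 45.4% (3554 higher, 4275 lower) to 61.4% (5321 higher, 3341 lower) in the first of these and from 55.4% (4212 higher, 3396 lower) to 42.8% (3459 higher, 4623 lower) in the second.

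Per kilobase of the principal transcript, B2m was the most abundant of the 10 genes in each cell type. In the authors' deposited table its mean corresponded to 68400 normalised counts per kilobase in osteoclasts against 73840 in macrophages and 116600 in dendritic cells. H2-D1 came next, with 18110, 17690 and 15870, and H2-K1 followed with 11010, 12440 and 14680, from the authors' deposited table. The other 7 genes were far below the heavy chains H2-D1 and H2-K1: in osteoclasts they ran from 2271 for Tapbp to 261 for H2-M3 on the same scale in the authors' deposited table. The order below H2-K1 depended on the length taken. Per kilobase of the principal transcript H2-M3 was the lowest member in osteoclasts (261) and dendritic cells (566.2), but with all exons of a gene counted Psmb9 (157.5 and 372.2) and Tap1 (169.4 and 513.2) lay below it there, in the authors' deposited table. Likewise Psmb8 stood above Tapbp in dendritic cells by the first length (2851 against 2634) and below it by the second (1373 against 2104), per kilobase in the authors' deposited table. These orders across genes have no error, because the table gives means only.

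**Figure D1:**
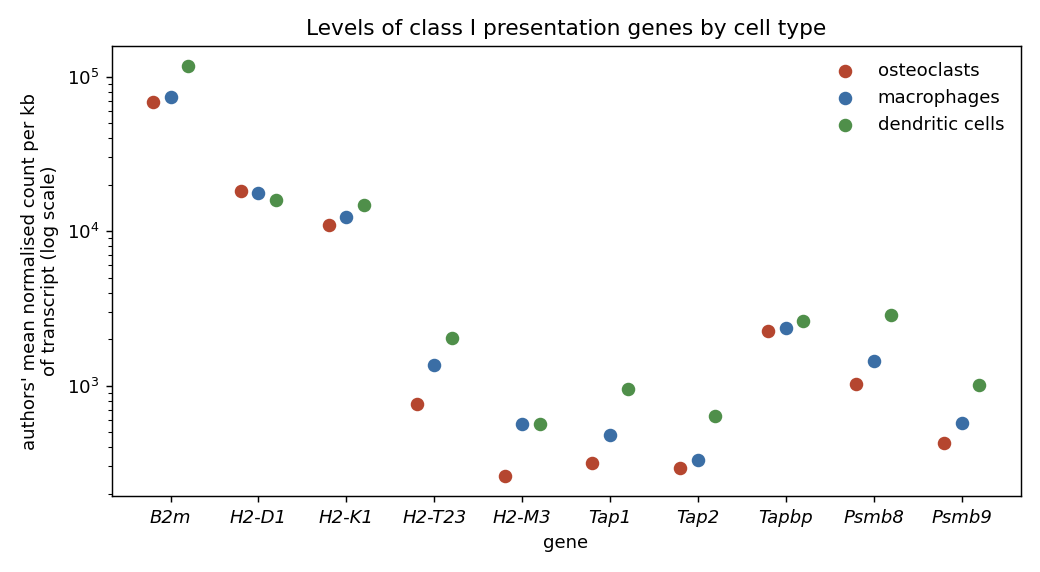
Mean normalised count per kilobase of principal transcript (log axis) for the 10 genes in osteoclasts, macrophages and dendritic cells, from the authors' deposited means, without error bars because the table gives none. B2m lies above all others, and the points of H2-D1, H2-K1 and Tapbp lie close together across cell types while those of Tap1, Psmb8 and H2-T23 spread.

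The 10 genes separated by how far their levels differed between cell types. In the authors' deposited table the highest mean was 3.03 times the lowest for Tap1, 2.77 times for Psmb8, 2.67 times for H2-T23, 2.36 times for Psmb9 and 2.17 times for both Tap2 and H2-M3. It was 1.7 times for B2m, 1.33 times for H2-K1, 1.16 times for Tapbp and 1.14 times for H2-D1 in the authors' deposited table. Osteoclasts held the lowest mean of 9 genes and dendritic cells the highest of 8, the exceptions being H2-D1, highest in osteoclasts, and H2-M3, where macrophages and dendritic cells were level. These orders include differences that were not called, such as all those of H2-K1 and Tapbp. The share of all genes with the same order was not computed. As a share of the summed means, Tapbp was at 0.0272% in osteoclasts and 0.0275% in macrophages and in dendritic cells.

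Osteoclasts had lower levels than macrophages of 5 of the 10 genes and higher levels of none at an adjusted p under 0.05 in the authors' deposited table. Over all 17822 genes tested, 14.7% were lower and 14.5% higher in osteoclasts (29.3% called). The 5 were both nonclassical heavy chains, H2-M3 and H2-T23, the transporter subunit Tap1 and both immunoproteasome subunits, Psmb8 and Psmb9. The median log2 fold change over the 10 genes was -0.30, beside -0.03 over all genes tested, from the authors' deposited table. In bulk RNA of this kind, fewer cells of a type and less RNA per cell cannot be told apart.

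Against dendritic cells, osteoclasts had lower levels of 7 of the 10 genes and higher levels of none, in the authors' deposited table. There 20.1% of 21217 genes tested were lower and 16.8% higher (36.9% called). The 7 were the same 5 with B2m and Tap2, and the median over the 10 genes was -1.11 beside -0.05 over all genes, on the log2 scale of the authors' deposited table.

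Dendritic cells had higher levels than macrophages of 6 of the 10 genes and lower levels of none, in the authors' deposited table, where 20.3% of 20730 genes tested were higher and 16.4% lower (36.7% called). The 6 were B2m, Tap1, Tap2, H2-T23, Psmb8 and Psmb9. The median was 0.61 beside 0.05 over all genes, again as log2 values from the authors' deposited table. The 3 comparisons share their libraries, so their counts are not independent of each other. H2-K1, H2-D1 and Tapbp were called in none of them.

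**Figure D2:**
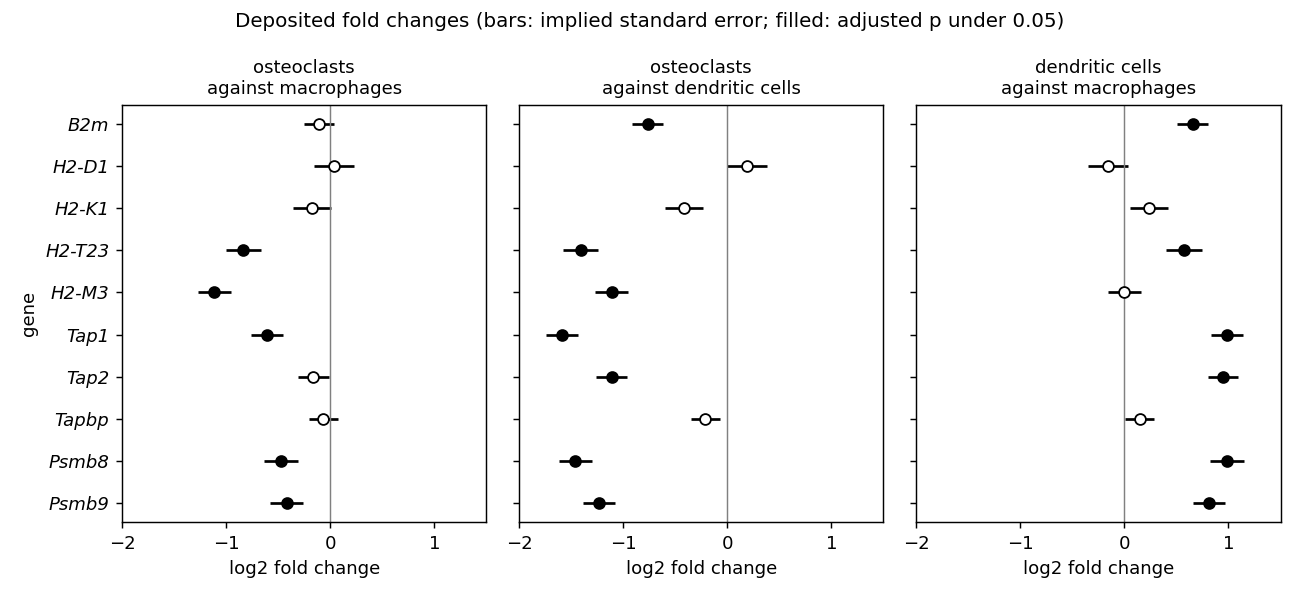
Log2 fold change of each gene in the 3 comparisons of the authors' deposited table, with bars of 1 implied standard error, filled points at an adjusted p under 0.05 and open points otherwise. Filled points lie left of 0 in both osteoclast comparisons (5 and 7 genes) and right of 0 for dendritic cells against macrophages (6 genes).

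The classical heavy chains were abundant and were called in no comparison. H2-K1 averaged 17819 normalised counts in osteoclasts against 20144 in macrophages and 23770.0 in dendritic cells, by the authors' deposited table. Its log2 fold change was -0.18 ± 0.18 against macrophages (adjusted p = 0.528) and -0.41 ± 0.18 against dendritic cells (adjusted p = 0.0612) in the authors' deposited table, where ± is the standard error implied by the fold change and its p-value. The latter was the only uncalled difference of H2-K1 near the threshold, and with genes under 1 CPM (counts scaled to the library total) left out of the adjustment its p became 0.0446. H2-D1 averaged 38068, 37191 and 33358 in the same order in the authors' deposited table. Its log2 fold change was 0.03 ± 0.19 against macrophages (adjusted p = 0.931) and 0.19 ± 0.19 against dendritic cells (adjusted p = 0.485) in the authors' deposited table. These chains are the members most exposed to shared sequence among the abundant ones: 8.79% of the 50-base stretches of the H2-K1 transcript and 14.3% of those of H2-D1 occur in another gene, and the sources used here do not say how the authors assigned such reads.

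B2m, the light chain, was called in both comparisons with dendritic cells. It averaged 58821 normalised counts in osteoclasts against 63503 in macrophages and 100254 in dendritic cells, by the authors' deposited table. Osteoclasts and macrophages differed by -0.11 ± 0.15 on the log2 scale (adjusted p = 0.638), whereas osteoclasts were lower than dendritic cells by a log2 fold change of -0.77 ± 0.15 (adjusted p = 1.04e-06) in the authors' deposited table. Dendritic cells exceeded macrophages by 0.66 ± 0.15 (adjusted p = 3.78e-05) on that scale in the authors' deposited table. None of its 50-base stretches was shared with another gene. Per kilobase of principal transcript, B2m was 2.35 times the sum of the 2 classical heavy chains in osteoclasts. It was 2.45 times in macrophages and 3.82 times in dendritic cells, a ratio of the authors' means with no error of its own. The absolute ratio depends on the length taken. With all exons counted, B2m stayed at 68400 in osteoclasts, while H2-K1 fell from 11010 to 6065 and H2-D1 from 18110 to 14760.

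Reads of single libraries could be recovered for the less abundant members. The means are printed to 15 digits, and a mean of 4 whole read counts each divided by its size factor often has a single solution, which was found for 17 of the 30 values of a gene in a cell type. Libraries are named a to d in order of size factor, since nothing ties them to the replicate numbers in the labels, and a letter does not mark the same mouse across cell types. On simulated means under 1000, 119 of 120 were recovered with none wrong. Between 1000 and 3000 only solutions with libraries within 2-fold of each other were considered, and there 81 of 120 were recovered and 1 was wrong. By cell type these were 22 of 40 in osteoclasts, which held the wrong one, 28 of 40 in macrophages and 31 of 40 in dendritic cells. The simulation took the fitted size factors as exact, so the effect of error in them was not tested. The 2-fold rule gave 11 of the 17 member values. It leaves out groups with a wider spread, so the SD, overlap and exact tests of those values depend on it. H2-K1, H2-D1, B2m, Tapbp and the dendritic cell value of Psmb8 lay above this range.

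**Figure D3:**
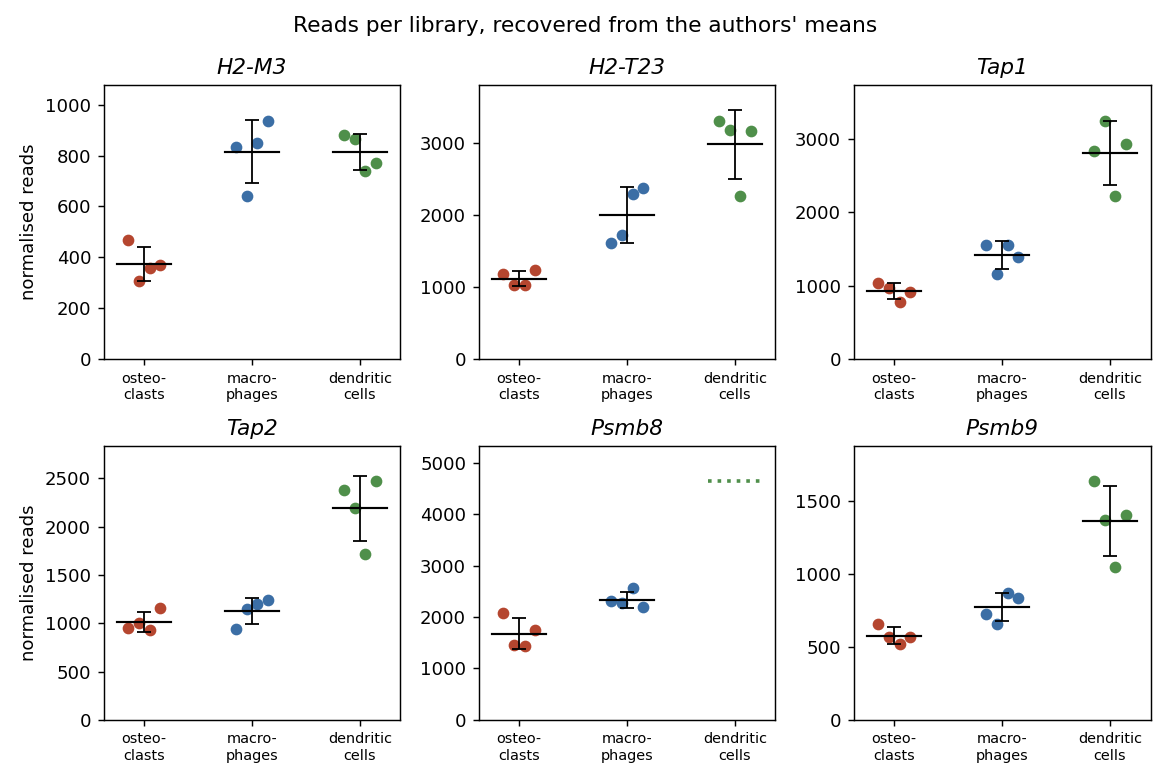
Recovered normalised reads of the 4 libraries of each cell type for the 6 genes with recovered values, with the mean (line) and SD (bar), each panel on a linear axis from 0. The dotted line for Psmb8 in dendritic cells is the authors' mean, since its libraries were not recovered. Osteoclast libraries lie below all dendritic cell libraries in the 5 panels with both. The share of all genes that separate in this way was not computed, so this describes the panels and is not a trait of these genes. Of all genes tested between osteoclasts and dendritic cells, 36.9% were called.

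H2-M3, which presents N-formylated peptides, was the member with the widest gap between osteoclasts and macrophages. Its osteoclast libraries a to d held 467.5, 307.4, 357.7 and 368.5 normalised reads (375 ± 67.0, SD, n = 4). The macrophage libraries held 834, 642, 848 and 938 (816 ± 124, SD, n = 4), and the dendritic cell libraries 882, 867, 739 and 769 (814 ± 70.8, SD, n = 4). Every osteoclast library was below every library of the other cell types, while macrophage and dendritic cell libraries overlapped. The log2 fold change of osteoclasts was -1.11 ± 0.16 against macrophages (adjusted p = 1.02e-10) and -1.11 ± 0.16 against dendritic cells (adjusted p = 3.85e-11) in the authors' deposited table. An exact permutation test of the libraries gave p = 0.0286, two-sided, for both, which is the smallest value 4 against 4 allow, and 0.0352 after adjustment over the 16 member tests. Between dendritic cells and macrophages it gave an exact p = 1, with a log2 difference of 0.01, and the authors' deposited table gave an adjusted p of 0.993.

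H2-T23, the Qa-1 heavy chain, had its lowest reads in osteoclasts. Its osteoclast libraries held 1173, 1030.3, 1021 and 1233 normalised reads (1114 ± 105, SD, n = 4). The macrophage libraries held 1605, 1715, 2291 and 2372 (1996 ± 391.5, SD, n = 4), and the dendritic cell libraries 3306, 3181, 2261 and 3157 (2976 ± 481, SD, n = 4). Osteoclasts lay below both other cell types without overlap, and dendritic cell library c lay among the higher macrophage libraries. In the authors' deposited table the log2 fold change of osteoclasts was -0.84 ± 0.17 against macrophages (adjusted p = 1.23e-05) and -1.41 ± 0.17 against dendritic cells (adjusted p = 2.33e-15). Dendritic cells against macrophages stood at 0.57 ± 0.17 (adjusted p = 0.00287) in the authors' deposited table, whereas the exact permutation test over libraries gave p = 0.0857 for this comparison (0.098 adjusted over the 16 member tests). Of its 50-base stretches 28.8% occur in other genes, the highest share of the 10 members.

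Osteoclasts had less Tap1 and Tap2, the transporter subunits, than dendritic cells, and Tap1 was also lower than in macrophages. Tap1, which with Tap2 forms the peptide pump, held 1037, 974, 783 and 917 normalised reads in the osteoclast libraries (928 ± 108, SD, n = 4). The macrophage libraries held 1562, 1162, 1552 and 1391 (1417 ± 187, SD, n = 4), and the dendritic cell libraries 2837, 3251, 2218 and 2935 (2810.4 ± 433, SD, n = 4). The 3 cell types did not overlap. The log2 fold change of osteoclasts was -0.61 ± 0.15 against macrophages (adjusted p = 0.000565) and -1.59 ± 0.15 against dendritic cells (adjusted p = 6.07e-24) in the authors' deposited table. Dendritic cells exceeded macrophages by 0.98 ± 0.15 (adjusted p = 1e-09) there, in the authors' deposited table, and the exact permutation p was 0.0286 in all 3 comparisons.

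Tap2 held 950.2, 1002, 929 and 1159 normalised reads in the osteoclast libraries (1010.2 ± 104, SD, n = 4). The macrophage libraries held 937, 1146, 1195 and 1244 (1130.4 ± 135, SD, n = 4), and the dendritic cell libraries 2381, 2192, 1720.2 and 2469 (2190.5 ± 334, SD, n = 4). Osteoclasts and macrophages overlapped, and dendritic cells lay above both. In the authors' deposited table osteoclasts against macrophages stood at -0.16 ± 0.15 (adjusted p = 0.454) and osteoclasts against dendritic cells at -1.11 ± 0.15 (adjusted p = 3e-13), both as log2 fold changes. The exact permutation p was 0.257 and 0.0286 for these. Dendritic cells exceeded macrophages by 0.95 ± 0.15 (adjusted p = 6.12e-10) on the log2 scale in the authors' deposited table.

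Whether Tap1 and Tap2 differed in their change was tested within libraries, a comparison chosen after their values were seen. The ratio of Tap1 to Tap2 reads was 0.924 ± 0.135 in osteoclasts, against 1.28 ± 0.287 in macrophages and 1.29 ± 0.138 in dendritic cells (SD, n = 4 each). Osteoclasts and dendritic cells did not overlap in this ratio, with an exact permutation p of 0.0286 that became 0.0952 when adjusted over the 10 ratio tests. For osteoclasts against macrophages the exact permutation p was 0.0571 (0.114 adjusted). A change in the balance of the subunits did not pass the adjusted threshold. The exact p of 0.0286 is the smallest that 4 against 4 libraries allow. A ratio could not pass by its own separation among 10 tests, so the adjusted test cannot decide whether the balance changed.

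Tapbp, the tapasin gene that bridges the transporter to empty class I molecules, averaged 6582 normalised counts in osteoclasts against 6889 in macrophages and 7634 in dendritic cells, by the authors' deposited table. Its log2 fold changes were -0.07 ± 0.14 for osteoclasts against macrophages (adjusted p = 0.79), -0.21 ± 0.14 against dendritic cells (adjusted p = 0.243) and 0.15 ± 0.14 for dendritic cells against macrophages (adjusted p = 0.462) in the authors' deposited table. None was past the threshold.

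Psmb8, the immunoproteasome subunit that takes the place of Psmb5, held 2070, 1466, 1436 and 1742 normalised reads in the osteoclast libraries (1678 ± 295, SD, n = 4). The macrophage libraries held 2307, 2283, 2557 and 2206 (2338 ± 152, SD, n = 4). The cell types did not overlap, although osteoclast library a came close to the lowest macrophage library. The authors' deposited table gave a log2 fold change of -0.48 ± 0.16 (adjusted p = 0.0147), and the exact permutation p was 0.0286. The dendritic cell mean was 4641 in the authors' deposited table, where osteoclasts were lower, at -1.46 ± 0.16 (adjusted p = 3.36e-18) and dendritic cells exceeded macrophages by 0.98 ± 0.16 (adjusted p = 9.59e-09), as log2 fold changes.

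Psmb9, which takes the place of Psmb6 and starts back to back with Tap1, held 655, 565, 519 and 568 normalised reads in the osteoclast libraries (577 ± 56.9, SD, n = 4). The macrophage libraries held 726, 659, 866 and 838 (772 ± 96.7, SD, n = 4), and the dendritic cell libraries 1634, 1368, 1045 and 1402 (1362 ± 242, SD, n = 4). The cell types did not overlap, with macrophage library b just above osteoclast library a. The log2 fold change of osteoclasts was -0.42 ± 0.16 against macrophages (adjusted p = 0.0285) and -1.23 ± 0.16 against dendritic cells (adjusted p = 3.13e-14) in the authors' deposited table. Dendritic cells exceeded macrophages by 0.81 ± 0.15 (adjusted p = 9.76e-07) on the log2 scale in the authors' deposited table. The first of these was the weakest called difference of the 10 genes: with equal totals for each cell type it was -0.37 with an adjusted p of 0.0555.

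The ratio of the neighbours Psmb9 and Tap1 was compared in the same way. Psmb9 reads were 0.623 ± 0.0343 of Tap1 reads in osteoclasts, against 0.548 ± 0.0585 in macrophages and 0.486 ± 0.0649 in dendritic cells (SD, n = 4 each). Osteoclasts and dendritic cells did not overlap, but the difference did not pass after adjustment (exact permutation p = 0.0286, 0.0952 adjusted). As for Tap1 and Tap2, this exact p is the smallest possible, so the adjusted test cannot decide the question. Psmb8 reads were 2.90 ± 0.262 times Psmb9 reads in osteoclasts and 3.06 ± 0.352 times in macrophages (SD, n = 4 each), with overlapping libraries and an exact permutation p of 0.514.

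In dendritic cells, library c was the lowest of the 4 for each of the 5 members with recovered values, H2-M3, H2-T23, Tap1, Tap2 and Psmb9. Without it the log2 difference of recovered means between osteoclasts and dendritic cells was -1.53 for H2-T23, -1.70 for Tap1, -1.22 for Tap2, -1.35 for Psmb9 and -1.16 for H2-M3. These were all farther from 0 than with it. Among macrophages, libraries b and d held more reads of H2-Ab1 than a and c, at 121, 1097, 142 and 591 in a to d. H2-Ab1 is a class II beta chain named after its values were seen. The libraries of the other class II genes are not reported here. Without b and d the log2 difference between osteoclasts and macrophages was -0.75 for Tap1, -0.81 for H2-T23, -1.16 for H2-M3, -0.54 for Psmb8 and -0.47 for Psmb9. Each of these kept its direction.

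Of the 3 constitutive catalytic subunits, which the immunoproteasome subunits displace, 2 were higher and 0 lower in osteoclasts than in macrophages. The counts of this and the later lists stand beside the shares over all genes tested. In osteoclasts 14.5% were higher and 14.7% lower against macrophages, and 16.8% and 20.1% against dendritic cells. In dendritic cells against macrophages 20.3% were higher and 16.4% lower. Psmb5 was higher in osteoclasts by 0.68 ± 0.20 (adjusted p = 0.00438) and Psmb7 by 0.46 ± 0.12 (adjusted p = 0.00109) on the log2 scale of the authors' deposited table. Psmb6 stood at 0.33 ± 0.16 (adjusted p = 0.107) in the authors' deposited table. Psmb10, the remaining inducible catalytic subunit, whose gene lies outside this locus, was called in no comparison, with means of 996 in osteoclasts against 1095 in macrophages and 1381 in dendritic cells, by the authors' deposited table.

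Per kilobase, Psmb8 stood at 0.363 of Psmb5 in osteoclasts against 0.815 in macrophages and 1.2 in dendritic cells, as ratios of means in the authors' deposited table. Psmb9 stood at 0.0775, 0.131 and 0.185 of Psmb6, and Psmb10 at 0.261, 0.396 and 0.459 of Psmb7, in the same order and from the authors' deposited table. Each ratio was lowest in osteoclasts and highest in dendritic cells. The absolute ratio depends on the length used: with all exons of a gene counted, Psmb8 to Psmb5 was 0.175, 0.393 and 0.578, so that which of them was higher in dendritic cells cannot be read from these means. The ratios have no error, because single libraries were not recovered for these constitutive subunits in every cell type.

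**Figure D4:**
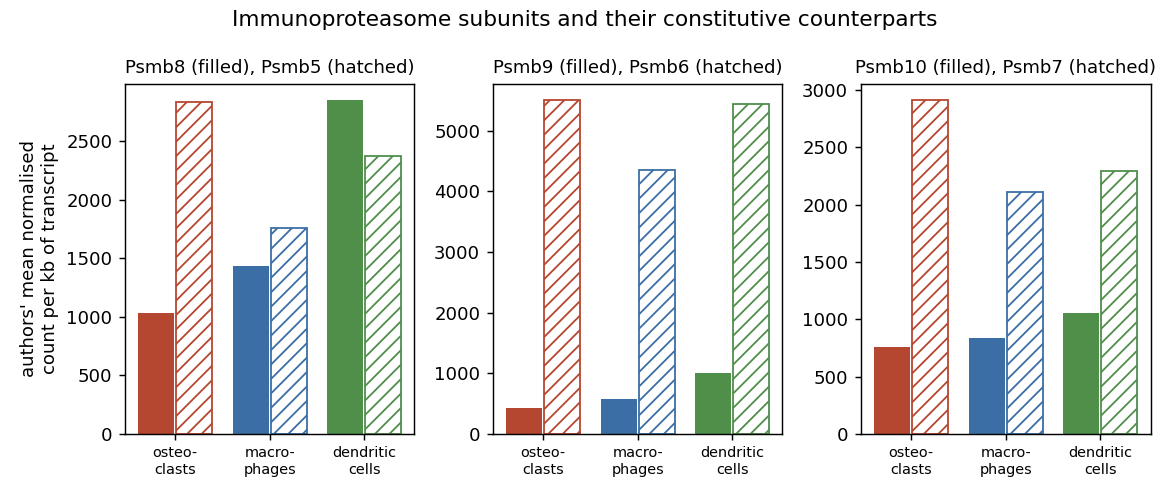
Mean normalised count per kilobase of the inducible (filled) and constitutive (hatched) catalytic subunits in osteoclasts, macrophages and dendritic cells, from the authors' deposited means, on linear axes from 0 that differ between panels. The filled bar is smallest relative to the hatched bar in osteoclasts in all 3 panels.

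Psme1, a subunit of the interferon-inducible PA28 cap, was lower in osteoclasts, at -0.43 ± 0.11 against macrophages (adjusted p = 0.00076) and -0.83 ± 0.11 against dendritic cells (adjusted p = 1.76e-12), as log2 fold changes of the authors' deposited table. Its partner Psme2 was not called in either osteoclast comparison (0.24, adjusted p = 0.0811, and -0.18, adjusted p = 0.184) in the authors' deposited table, but became higher than in macrophages with totals made equal (0.28, adjusted p = 0.0309). Psme3, which forms a separate nuclear cap, was higher in osteoclasts than in macrophages by 0.49 ± 0.13 (adjusted p = 0.000977) in the authors' deposited table, and with totals made equal it was also higher than in dendritic cells (0.39, adjusted p = 0.00721). Across the 6 genes of the immunoproteasome and activator list, 1 was higher and 1 lower in osteoclasts against macrophages, and 0 and 1 against dendritic cells. Over all genes 14.5% were higher and 14.7% lower in the first comparison, and 16.8% and 20.1% in the second. With only 6 genes, these counts are close to those shares.

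Of 11 other subunits of the 20S core, 4 were higher and 0 lower in osteoclasts against macrophages (median log2 0.25; 7 higher with totals made equal and 3 with upper-quartile scaling), and 0 were higher and 2 lower against dendritic cells (median -0.10, which became 0.10 with totals made equal, with 1 higher and 0 lower). Examples in the authors' deposited table were Psma3 (0.45 ± 0.14, adjusted p = 0.00646) and Psma6 (0.46 ± 0.13, adjusted p = 0.00253) against macrophages. Of 17 subunits of the 19S regulatory particle, which unfolds substrates, 5 were higher and 0 lower against macrophages and 6 higher and 0 lower against dendritic cells. With totals made equal these 19S counts became 11 and 15 higher, with 0 lower in each. The counts over all genes moved with that setting too. Against macrophages 2967 of 17822 genes were then higher and 2342 lower in osteoclasts. Against dendritic cells 5321 of 21217 were higher and 3341 lower. Psmd7 was higher in osteoclasts by 0.47 ± 0.11 (adjusted p = 0.000203) against macrophages and Psmd1 by 0.63 ± 0.14 (adjusted p = 3.83e-05) against dendritic cells in the authors' deposited table.

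Peptide loading and folding factors of the endoplasmic reticulum shifted by small amounts. Of 10, 6 were lower and 0 higher in osteoclasts than in macrophages (median log2 -0.33), and 3 were lower and 1 higher than in dendritic cells (median -0.09). With totals made equal the latter became 2 lower and 1 higher, and the median turned to 0.10. The count against macrophages was 3 lower and 1 higher with totals made equal and 8 lower and 0 higher with upper-quartile scaling. Tapbpl, a tapasin-related peptide editor, was lower in osteoclasts, at -0.35 ± 0.11 against macrophages (adjusted p = 0.0111) and -0.33 ± 0.12 against dendritic cells (adjusted p = 0.0129) in the authors' deposited table. With totals made equal the call of Tapbpl against dendritic cells was lost (-0.14, adjusted p = 0.367). Its osteoclast libraries held 414, 377, 443 and 440.0 normalised reads, below all macrophage libraries (478 to 613) and all dendritic cell libraries (494 to 571). Erap1, the aminopeptidase that trims peptides in the endoplasmic reticulum, stood at -0.29 ± 0.11 against macrophages (adjusted p = 0.0337) and Pdia3, the disulfide isomerase of the loading complex, at -0.35 ± 0.14 (adjusted p = 0.0366) in the authors' deposited table. With totals made equal the calls of Erap1 (adjusted p = 0.0829) and Pdia3 (adjusted p = 0.0755) were lost, that of Pdia3 also without a filter on low counts (adjusted p = 0.0533). The chaperones Calr and Canx were called in no comparison as deposited, and Canx became lower in osteoclasts than in macrophages with upper-quartile scaling (-0.25, adjusted p = 0.0497).

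Other class I and class I-like chains covered a wider range than the members. Of 17, 2 were higher and 7 lower in osteoclasts than in macrophages (16 tested, median log2 -0.34), and 0 were higher and 12 lower than in dendritic cells (median -1.22). The count against dendritic cells became 0 higher and 10 lower with totals made equal. Dendritic cells had 9 higher and 2 lower than macrophages. Mr1, which presents vitamin B metabolites to mucosal-associated invariant T cells, held 103, 93.1, 118 and 68.5 normalised reads in osteoclast libraries, 588, 461, 529 and 631 in macrophage libraries and 935, 1854, 1077 and 1203 in dendritic cell libraries. The cell types did not overlap, and osteoclasts were lower, at -2.50 ± 0.23 against macrophages (adjusted p = 3.2e-24) and -3.68 ± 0.23 against dendritic cells (adjusted p = 6.21e-54) on the log2 scale of the authors' deposited table.

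Cd1d1, which presents lipids to natural killer T cells, averaged 70.4 normalised counts in osteoclasts against 135 in macrophages and 1177 in dendritic cells, by the authors' deposited table, with log2 fold changes of osteoclasts of -0.93 ± 0.20 (adjusted p = 4.95e-05) and -4.03 ± 0.19 (adjusted p = 3.3e-93). Fcgrt, the neonatal Fc receptor, and Hfe, a regulator of iron uptake, were highest in macrophages. Fcgrt averaged 526 in osteoclasts against 2736 in macrophages and 876 in dendritic cells, by the authors' deposited table (log2 -2.32 ± 0.35 for osteoclasts against macrophages, adjusted p = 6.39e-10).

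The nonclassical heavy chains H2-M2 and H2-Q7 were the exceptions that were higher in osteoclasts than in macrophages. H2-M2 held 868, 761, 1283 and 867 normalised reads in osteoclast libraries and 42.3, 134, 28.2 and 154 in macrophage libraries. All osteoclast libraries were above all macrophage libraries, and the 2 higher macrophage libraries were b and d. The log2 fold change was 3.12 ± 0.56 (adjusted p = 4.64e-07) against macrophages and -2.55 ± 0.56 (adjusted p = 2.89e-05) against dendritic cells, whose mean was 6273, in the authors' deposited table. H2-Q7 averaged 216 in osteoclasts against 96.9 in macrophages and 1050.0 in dendritic cells, by the authors' deposited table, with 1.13 ± 0.31 (adjusted p = 0.00142) and -2.24 ± 0.30 (adjusted p = 8.28e-13) as log2 fold changes of osteoclasts. Of its 50-base stretches 40.2% occur in other genes, so its reads cannot be told from those of its relatives with certainty.

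**Figure D5:**
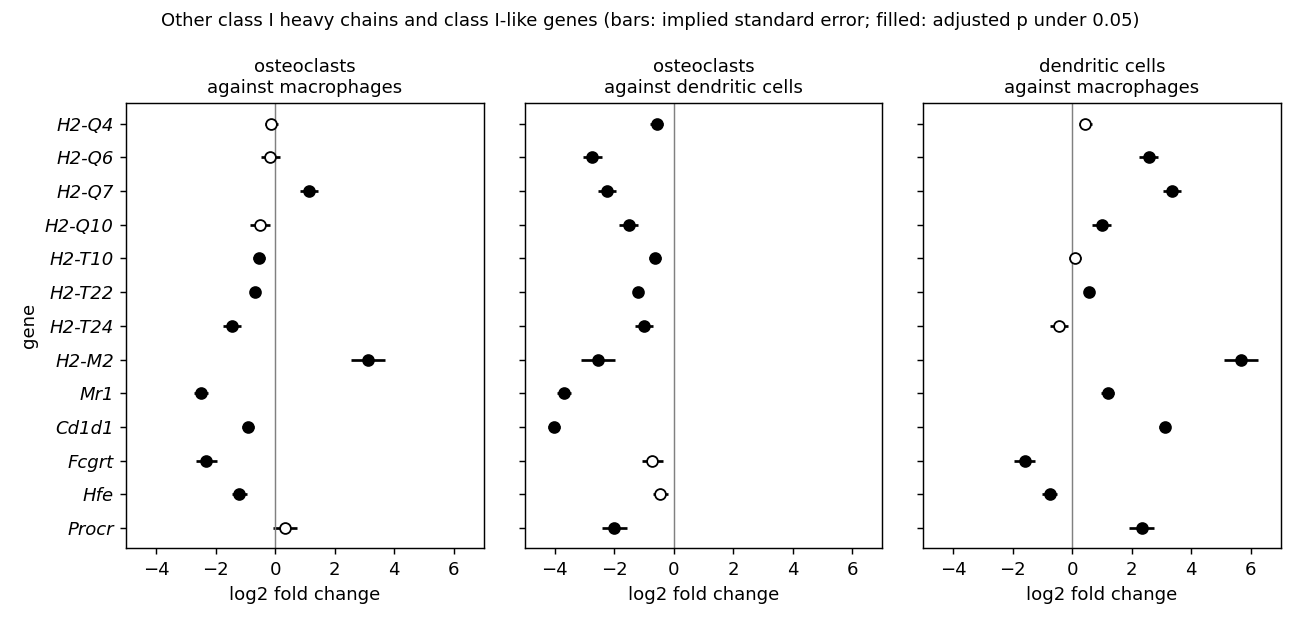
Log2 fold changes of 13 other class I and class I-like genes in the 3 comparisons of the authors' deposited table, with bars of 1 implied standard error and filled points at an adjusted p under 0.05; 4 genes with means under 50 in every cell type are left out. H2-M2 lies at 3.12, -2.55 and 5.67 from left to right, and Cd1d1 and Mr1 lie left of 0 in both osteoclast comparisons.

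Of 20 regulators of class I transcription, 8 were lower and 1 higher in osteoclasts than in macrophages (median log2 -0.28), and 10 were lower and 0 higher than in dendritic cells (median -0.37). The count against dendritic cells became 9 lower and 2 higher with totals made equal (median -0.17). Between dendritic cells and macrophages 7 were higher and 3 lower, which became 5 and 6 with totals made equal. Nlrc5, the transactivator of class I genes, held 667, 688, 701 and 603 normalised reads in osteoclast libraries, 1196, 921, 1106 and 933 in macrophage libraries and 1412, 1310, 1604 and 1430 in dendritic cell libraries. The cell types did not overlap, in the order of osteoclasts, macrophages and dendritic cells. Osteoclasts were lower, at -0.64 ± 0.12 against macrophages (adjusted p = 1.29e-06) and -1.11 ± 0.12 against dendritic cells (adjusted p = 2.55e-19), as log2 fold changes of the authors' deposited table, and dendritic cells exceeded macrophages by 0.47 ± 0.12 (adjusted p = 0.000336).

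Irf1, a factor that binds the interferon-type sites, had its highest mean in macrophages, at 1514, 1483, 1444 and 2334 normalised reads in the libraries, against 1330.1, 1169, 1042 and 1030.1 in osteoclasts and 1509, 1154, 1254 and 1137 in dendritic cells. Osteoclasts lay below macrophages without overlap (log2 -0.56 ± 0.18, adjusted p = 0.00824 in the authors' deposited table) and overlapped dendritic cells. Dendritic cells and macrophages also overlapped, and their Irf1 difference was not called (log2 -0.42, adjusted p = 0.0513) in the authors' deposited table. The exact permutation p for it was 0.0857. With totals made equal Irf1 became lower in dendritic cells than in macrophages (-0.57, adjusted p = 0.00513). Irf8, a factor of the macrophage and dendritic lineage that falls as osteoclasts form, averaged 899.9 in osteoclasts against 3156 in macrophages and 1763 in dendritic cells, by the authors' deposited table.

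Of 7 receptors and kinases of interferon signalling, which act upstream of these factors, 4 were higher and 3 lower in osteoclasts than in dendritic cells. The receptor chains Ifnar1, Ifnar2 and Ifngr2 were higher in osteoclasts, by 0.89 ± 0.12 (adjusted p = 2.96e-13), 0.30 ± 0.13 (adjusted p = 0.0468) and 0.50 ± 0.10 (adjusted p = 2.51e-06) on the log2 scale of the authors' deposited table. The kinases Jak2 and Tyk2 were lower, by -2.79 ± 0.20 (adjusted p = 1.45e-41) and -0.97 ± 0.15 (adjusted p = 8.89e-10), in the authors' deposited table. Without a filter on low counts the call of Ifnar2 was lost (adjusted p = 0.0575). Against macrophages 1 of the 7 was higher and 1 lower in osteoclasts, which became 0 and 2 with upper-quartile scaling.

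Among cytosolic peptidases that trim or destroy class I peptides, 1 was higher and 3 lower in osteoclasts than in dendritic cells of 8 matched, which became 3 and 3 with totals made equal and 2 and 3 with upper-quartile scaling. Lap3, leucine aminopeptidase, stood at -1.04 ± 0.11 (adjusted p = 7.38e-20) and Lta4h, which is also an aminopeptidase, at -1.79 ± 0.08 (adjusted p = 1.28e-113) in the authors' deposited table. Thop1, which degrades peptides of class I length, was higher in osteoclasts, by 0.69 ± 0.27 against macrophages (adjusted p = 0.038) and 0.87 ± 0.27 against dendritic cells (adjusted p = 0.00473), as log2 fold changes of the authors' deposited table. Without a filter on low counts the call of Thop1 against macrophages was lost (adjusted p = 0.0553).

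Of 18 genes tied to cross-presentation, by which cells load outside antigen onto class I, 1 was higher and 4 lower in osteoclasts than in macrophages, and 1 was higher and 9 lower than in dendritic cells. With totals made equal the latter became 3 higher and 6 lower. In the authors' deposited table the dendritic lineage genes Clec9a and Batf3 averaged 1.5 and 2.5 normalised counts in osteoclasts, whereas macrophages had 4.63 and 9.98 and dendritic cells 403 and 515.5. Vamp8, a vesicle fusion protein, was the gene higher in osteoclasts in both comparisons, by 0.52 ± 0.10 (adjusted p = 1.15e-06) and 0.33 ± 0.10 (adjusted p = 0.00225) on the log2 scale of the authors' deposited table.

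Of the 10 class II presentation genes, each was at a lower level in osteoclasts than in dendritic cells, with a median log2 fold change of -6.28 beside -1.11 for the class I members, and 3 of 10 were lower than in macrophages. H2-DMa, a subunit of the class II peptide exchange factor, averaged 151 in osteoclasts against 447 in macrophages and 11998 in dendritic cells, by the authors' deposited table. The difference between the medians was not tested.

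The genes whose means were most like those of H2-K1 and Tap1 over the 3 cell types were taken from 5830 genes with a mean of at least 1000, by the distance between log2 means centred on each gene. For H2-K1 they included Ube4a (distance 0.0095) and Slc35b1 (0.0119). For Tap1 they were Slc29a3 (0.0134), Cybb (0.0194) and Dusp16 (0.062). Cybb, the catalytic subunit of the phagocyte NADPH oxidase, averaged 20380 in osteoclasts against 31611 in macrophages and 61629 in dendritic cells, by the authors' deposited table. With 3 points per gene such a likeness is a description only.

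Markers of other cell types were summed beside these results. The 8 neutrophil genes summed to 77.6 normalised counts in osteoclasts against 92.0 in macrophages and 14582 in dendritic cells, which is 0.0526% of the summed means there, with none of the 8 at 0 in dendritic cells. The 5 mast cell and basophil genes summed to 0.25, 1.46 and 386, and the 6 B cell genes to 68.1, 940.1 and 336. The 8 T and NK cell genes summed to 13.8, 23.5 and 38.8, with 5, 5 and 1 of them at 0. The 5 stromal genes summed to 291, 12.2 and 33.1, and Dcn, a matrix proteoglycan, made up 282.5 of the osteoclast sum in the authors' deposited table. Of these 5, 1 (Dcn) was called higher in osteoclasts than in macrophages, and none was called lower. The part of these cells in the class I differences was not tested.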

How the data were processed

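The study deposited a single table of the authors' comparisons, with 46072 genes in 3 cell types. Its columns, per the file headers, are the authors' mean in both cell types of a pair, their log2 fold change, and the raw and adjusted p-value. That the deposited means are read counts divided by size factors and averaged over 4 libraries follows from the values. The submitters' processing notes name bcl2fastq, Bowtie2, TopHat2, Cufflinks 2.1.1, DESeq2 2.13 and GRCm38; the role of each tool, and whether counting used strand, is not given in the sources. Calls are the authors' own, at an adjusted p under 0.05 over all genes. The standard error shown is the deposited log2 fold change over the normal quantile of its p-value, taken as a two-sided Wald test, which is an inference. A test on counts per library had been planned and did not apply, as the table has no column per library.

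Reads per library were solved from the means of up to 1000, and up to 3000 for libraries within 2-fold, limits chosen after seeing the data, and compared by exact permutation tests with Benjamini-Hochberg adjustment. Coordinates and transcript lengths are from GENCODE M21 and upstream sequence from RefSeq. The calculations used Python 3.11.15, pandas 2.3.3, numpy 2.4.6 and scipy 1.17.1. The text names the 10 members, 15 pathway genes set by name, up to 2 genes in each direction per list and comparison by smallest p, and 3 genes most like H2-K1 and Tap1. The members and lists were chosen with earlier results of these data known. Some genes that this rule names are not reported here.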

Additional observations from a re-analysis of the deposited data

Results flagged for a closer look

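H2-T23 in dendritic cells had a library far from the others: library c held 2261 normalised reads, whereas the other libraries held 3157 to 3306. It was the only such case among the 17 groups of 4 libraries examined, and chance alone gives about 1 in 20 groups. The same library was also the lowest for H2-M3, Tap1, Tap2 and Psmb9, and it was the highest for Nlrc5, at 1604. Without it the log2 difference of dendritic cells against macrophages in H2-T23 was 0.69.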

How the results depend on the processing

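No paired analysis was possible because the table holds means and the recovered libraries carry no replicate number. The counts of members called higher and lower in the 3 comparisons were recomputed with equal totals for each cell type, with upper-quartile scaling, without a filter on low counts and with genes under 1 CPM left out. They moved by at most 1: with equal totals 4 members were lower in osteoclasts than in macrophages in place of 5, Psmb9 being lost, and with the stricter filter 8 in place of 7 were lower than in dendritic cells, H2-K1 being gained. No called fold change of a member reversed. Among those not called, Tapbp in dendritic cells against macrophages went from 0.15 to -0.0008 with equal totals, and that of H2-M3 ranged from -0.10 to 0.07 on leaving out libraries. Each library was left out in turn, and macrophage libraries b and d also together. The log2 difference of osteoclasts against macrophages then ranged from -1.24 to -1.04 for H2-M3, -0.93 to -0.75 for H2-T23, -0.75 to -0.54 for Tap1, -0.60 to -0.41 for Psmb8 and -0.49 to -0.36 for Psmb9. For Tap1 the value of -0.75 is that without b and d together. For H2-K1, H2-D1, B2m and Tapbp no such check was made, since their libraries were not recovered. The exact test cannot go below 0.0286, and the depth of single libraries is known only through the recovered size factors.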
